A study of Mus musculus with 6 samples.

Results

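The genes of mitochondrial ribosomal proteins were examined in bone marrow monocytes (BMDM) and brainstem microglia (BSM) of mice. Members were all genes of the Cufflinks table whose symbol begins with Mrpl or Mrps followed by a digit, which gave 76 of 35237 genes. The same rule found 77 of 36536 genes in the ALEXA-Seq table, which also lists Mrpl42, and 76 genes were in both. BMDM were sorted as CD11b+ CD45high CD115+ Ly6G- cells and BSM as CD11b+ CD45low CD115low Ly6G- cells, each from pooled, untreated C57BL/6 mice at 6 weeks of age. Each cell type had 3 libraries, of which replicate 1 was from male and replicates 2 and 3 from female mice by the labels. All libraries were amplified from small amounts of total RNA with the Ovation RNA-Seq method.

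The mitochondrial ribosome is built in the mitochondrial matrix from proteins encoded in the nucleus and from 12S and 16S ribosomal RNAs encoded by the mitochondrial genome itself. It makes only the few membrane subunits of the respiratory chain and of ATP synthase that the mitochondrial genome still encodes. Proteins named Mrpl belong to the large subunit, which joins amino acids, and most proteins named Mrps belong to the small subunit, which reads the messenger RNA. Some descend from bacterial ribosomal proteins, and others were added in mitochondria and have no bacterial counterpart. Of the 76 members, 46 had a bacterial homolog and 28 were mitochondria-specific. The remaining 2 were Mrpl48-ps, a pseudogene by its symbol, and Mrps36, whose protein is now placed outside the mitoribosome.

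Promoters were read from RefSeq windows on GRCm38.p6, which run from 250 bases before to 50 bases after each gene's start. A window was matched by symbol for 66 of the 76 members and for 27025 genes in all. The ETS core CCGGAAG, searched on both strands, lay in the windows of 24 members (36.4%), compared with 9.93% of all genes and 22.3% of the 4163 genes that had a window and passed the expression minimum given below. The NRF1 motif of 10 letters, searched the same way, lay in 12 members (18.2%), compared with 5.19% of all genes and with 543 of the 4163 that passed, a share nearer to that of the members. The YY1 motif of 10 letters lay in 5 members (7.58%), compared with 0.995% and 2.83%. ETS and NRF1 factors are known from many promoters of nuclear genes for mitochondrial proteins. The ETS and YY1 motifs can share the letters AAG, but no window held them overlapping.

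The SP1 motif GGGCGG lay in 48.5% of the members, between 38.2% of all genes and 71.4% of genes that passed the minimum. CCAAT lay in 39.4% of the members, 41.1% of all genes and 43.3% of genes that passed. TATAAA lay in 7.58% of the members, 15.7% of all genes and 8.94% of genes that passed. A match is a description of the letters and does not show that a factor binds there.

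**Figure D1:**
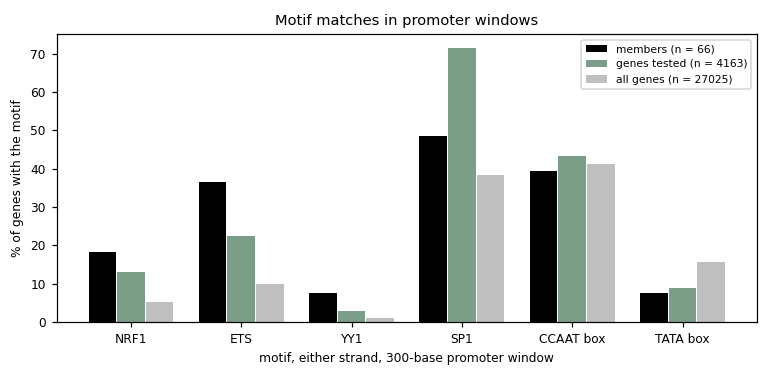
Share of genes with each motif in the promoter window (y axis, percent; x axis, motif by name, either strand), for the 66 members with a window (black), 4163 genes that passed the FPKM minimum (green) and all 27025 genes (grey). The ETS core was found in 36.4% of members and 9.93% of all genes, whereas the CCAAT box was found in 39.4% and 41.1%.

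The stretches from 150 bases before to 50 bases after the start are shown 5′ to 3′ for the 8 members with the largest difference called in both tables, in that order, and for Mrpl24, the member closest to no difference. Capitals mark ETS and NRF1 matches.
Mrpl33, chr5:31613801-31614000, plus strand: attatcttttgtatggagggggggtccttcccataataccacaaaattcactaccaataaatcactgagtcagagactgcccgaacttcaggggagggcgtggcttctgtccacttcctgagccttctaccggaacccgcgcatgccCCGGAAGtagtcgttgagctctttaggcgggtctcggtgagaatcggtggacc
Mrpl18, chr17:12916042-12916241, minus strand: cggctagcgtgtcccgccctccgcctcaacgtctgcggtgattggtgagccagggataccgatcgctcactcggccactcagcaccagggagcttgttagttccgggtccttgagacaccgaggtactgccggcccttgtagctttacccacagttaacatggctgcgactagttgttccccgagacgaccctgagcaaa
Mrps14, chr1:160195065-160195264, plus strand: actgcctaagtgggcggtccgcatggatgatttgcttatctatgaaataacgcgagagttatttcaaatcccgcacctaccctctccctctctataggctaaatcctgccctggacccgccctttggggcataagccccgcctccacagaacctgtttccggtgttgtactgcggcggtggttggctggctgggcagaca
Mrpl30, chr1:37890327-37890526, plus strand: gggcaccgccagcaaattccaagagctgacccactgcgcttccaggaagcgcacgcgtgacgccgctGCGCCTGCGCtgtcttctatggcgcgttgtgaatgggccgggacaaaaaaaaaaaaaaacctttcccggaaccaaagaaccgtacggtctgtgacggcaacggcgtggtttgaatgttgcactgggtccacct
Mrpl39, chr16:84735195-84735394, minus strand: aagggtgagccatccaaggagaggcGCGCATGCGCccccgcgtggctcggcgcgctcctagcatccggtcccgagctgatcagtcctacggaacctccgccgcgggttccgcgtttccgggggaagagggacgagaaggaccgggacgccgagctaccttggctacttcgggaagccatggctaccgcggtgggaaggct
Mrpl34, chr8:71464776-71464975, plus strand: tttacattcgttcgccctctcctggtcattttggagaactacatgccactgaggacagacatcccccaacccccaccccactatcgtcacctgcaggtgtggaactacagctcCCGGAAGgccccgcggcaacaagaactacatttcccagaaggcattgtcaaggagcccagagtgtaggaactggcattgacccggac
Mrpl51, chr6:125192050-125192249, plus strand: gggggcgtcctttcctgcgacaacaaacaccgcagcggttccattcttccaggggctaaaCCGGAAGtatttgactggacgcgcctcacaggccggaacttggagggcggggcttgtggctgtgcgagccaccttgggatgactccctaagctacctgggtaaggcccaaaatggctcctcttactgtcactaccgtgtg
Mrps21, chr3:95871465-95871664, minus strand: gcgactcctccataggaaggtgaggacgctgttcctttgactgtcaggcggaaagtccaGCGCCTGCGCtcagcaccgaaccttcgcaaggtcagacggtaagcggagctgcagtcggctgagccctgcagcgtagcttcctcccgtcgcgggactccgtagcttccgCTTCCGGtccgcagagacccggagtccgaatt
Mrpl24, chr3:87919394-87919593, plus strand: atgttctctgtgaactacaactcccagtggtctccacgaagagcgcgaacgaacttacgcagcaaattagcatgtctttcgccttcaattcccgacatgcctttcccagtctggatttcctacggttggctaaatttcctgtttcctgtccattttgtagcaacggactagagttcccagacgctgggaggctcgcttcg
Mrpl34 and Mrpl51 hold an ETS core before the start, and that of Mrpl33 spans the start. Mrpl30 and Mrpl39 hold an NRF1 match, and Mrps21 holds both motifs, its ETS core lying after the start. The stretch of Mrpl18 holds none of the ETS, NRF1 or YY1 motifs, and the whole windows of Mrps14 and Mrpl24 held 0 matches to them, so members with a large difference were found with and without these letters.

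Members were expressed at low to moderate levels in both cell types. FPKM values are scaled for transcript length, which is meant to let levels be compared between genes. For some genes named below, Mrpl44, Lars2 and mt-Co2, the FPKM and ALEXA-Seq tables placed the level very differently. Rankings between genes therefore describe the FPKM as deposited. The median member stood at 1.01, 1.76 and 1.47 FPKM in BMDM replicates 1, 2 and 3 and at 0.151, 0.789 and 0.592 FPKM in BSM replicates 1, 2 and 3. All 3 BMDM libraries were above all 3 BSM libraries, and BSM replicate 1 was lowest. Between 39 and 49 members reached 1 FPKM in each BMDM library, compared with 24 to 31 in each BSM library.

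Summed over the 76 members, the level was 175.0, 225.2 and 203.7 FPKM in BMDM and 87.9, 89.6 and 78.9 FPKM in BSM. The mean of the sums was 201.3 ± 25.2 (SD, n = 3) in BMDM and 85.5 ± 5.78 in BSM, a ratio of 2.36, without overlap. The FPKM of all genes in the table summed to 163200 to 194200 in BMDM and 68290 to 75020 in BSM, a ratio of 2.50, so the family's total differed by about as much as the whole table. As a share of the FPKM of all genes outside the mitochondrial chromosome, the members made up 0.169%, 0.162% and 0.177% in BMDM and 0.145%, 0.140% and 0.134% in BSM. The shares did not overlap, with a ratio of means of 1.21. In bulk samples fewer expressing cells and less RNA per cell cannot be told apart.

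**Figure D2:**
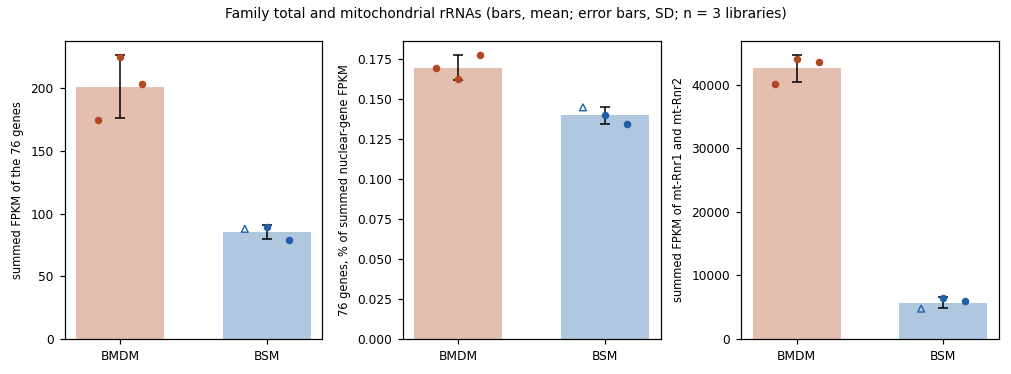
Summed FPKM of the 76 members (left), their share of the summed FPKM of nuclear genes in percent (centre) and summed FPKM of the 12S and 16S rRNAs (right) in BMDM and BSM, with bars for means, error bars for SD, points for libraries and a triangle for BSM replicate 1. BMDM lies above BSM in all 3 panels, with ratios of 2.36, 1.21 and 7.42.

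BSM replicate 1 stood apart from the other BSM libraries. Across the genes tested its log2(FPKM + 1) values correlated with BSM replicates 2 and 3 at 0.799 and 0.794, compared with 0.973 between those 2 libraries and 0.902 to 0.971 among BMDM, as a description across genes. It lay outside the range of BSM replicates 2 and 3 for 71 of 76 members, was the lowest of all 6 libraries for 55 and the highest for 7, and listed 17 members at 0 that were above 0 in the other 5 libraries. In the study's RNA measurements it also had the lowest RNA concentration of all libraries and the lowest integrity number, far below the others. It was the only BSM library from male mice. The part of RNA quality, RNA amount and sex in its values was not tested. Results are therefore given with and without this library where it changes them.

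**Figure D3:**
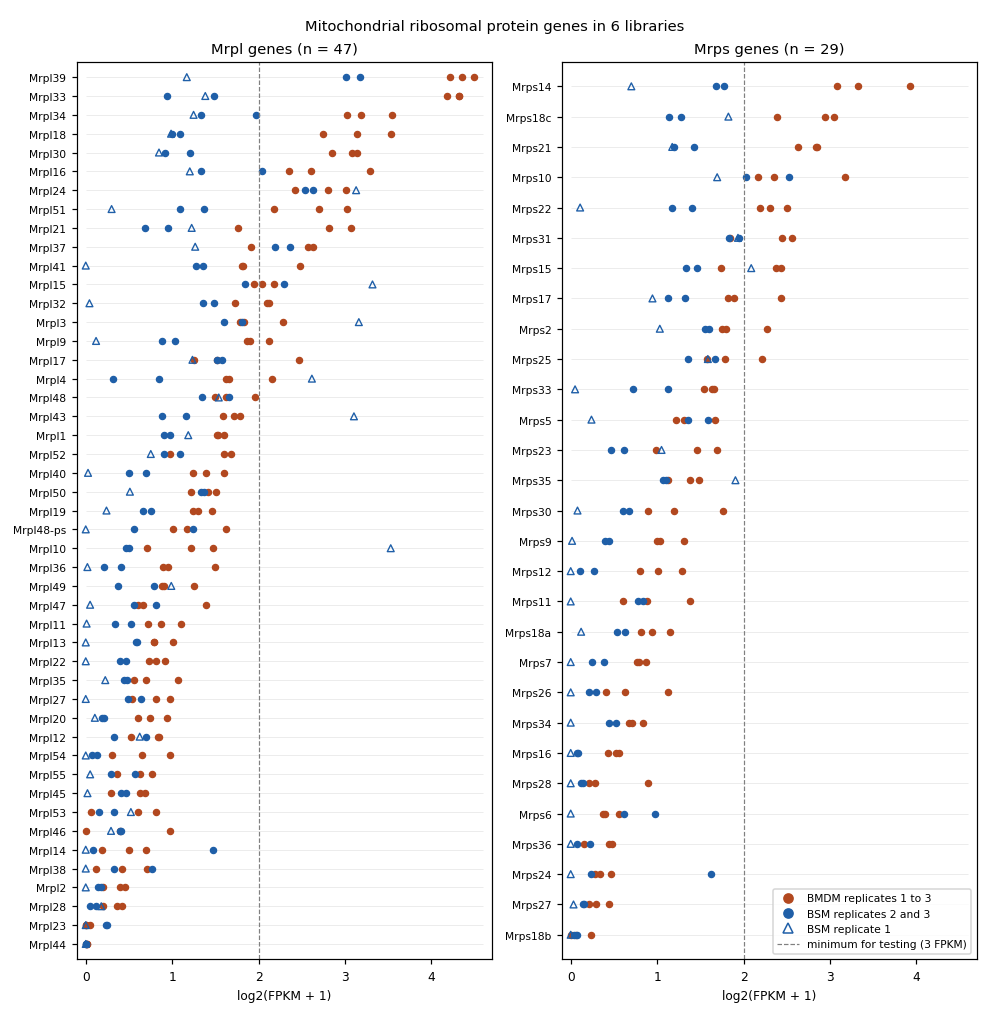
Every member in every library, as log2(FPKM + 1) on the x axis, with Mrpl genes (left, n = 47) and Mrps genes (right, n = 29) ordered by their mean FPKM in BMDM. BMDM (red) lie to the right of BSM (blue) at the top of both panels, and BSM replicate 1 (triangles) is often at or near 0 but far to the right for Mrpl10, Mrpl15, Mrpl3 and Mrpl43.

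Groups were compared with limma on log2(FPKM + 1) for the 6364 genes that reached 3 FPKM in at least 1 library, with p-values adjusted by the Benjamini-Hochberg method over all of them. Of the 76 members 29 passed this minimum, 25 peaked between 1 and 3 FPKM and 22 stayed under 1 FPKM in every library. Of the 29, 9 passed in both cell types, 18 in BMDM only, and Mrpl10 and Mrpl43 through BSM replicate 1 only. Members that passed in BMDM only had to be lower in BSM by the minimum itself, so the counts below describe these genes and not the family.

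At an adjusted p-value under 0.05, 15 of the 29 were higher in BMDM, where 45.3% of all genes tested were, and 0 were higher in BSM, where 9.22% of all genes were. At an unadjusted p-value under 0.05, limma gave 16 members higher in BMDM and 0 higher in BSM. The median log2 fold change of the 29 was 1.02, compared with 0.81 for all genes tested. Of the 9 members that passed in both cell types 2 were higher in BMDM, Mrpl16 and Mrpl39, with a median log2 fold change of 0.48. After quantile normalization, described next, 0 of these 9 were higher in BMDM and 2 in BSM, with a median of -0.31. Without BSM replicate 1, 4 were higher in BMDM and 0 in BSM on the FPKM as deposited. With quantile normalization and without that library, 1 was higher in BMDM (25.4% of all genes) and 2 in BSM (23.2%). Among the 9, Mrpl3, Mrpl4 and Mrps15 reached 3 FPKM in BSM through replicate 1 only. Without it they pass through BMDM only, and Mrpl4 and Mrps15 were among the 4, so that count is not free of the minimum. A member that was not called is not shown to be equal in the cell types.

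Since most genes had higher FPKM in BMDM, each fold change has to be read against 0.81, the median of all genes. After quantile normalization, which gives every library the same distribution of values and moves that median to 0.02, 7 of the 29 members were higher in BMDM (21.7% of all genes) and 2 were higher in BSM (19.3% of all genes), and the median of the members was 0.15. All 7 were among the 15 called on the FPKM as deposited. Without BSM replicate 1, 27 members passed the minimum, of which 16 were higher in BMDM (52.7% of all genes) and 0 in BSM (11.1%), with 18 and 0 at an unadjusted p-value under 0.05. The median was then 1.00, compared with 0.75 for all genes.

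By subunit, 10 of 19 large subunit members tested were higher in BMDM, with a median log2 fold change of 1.16, and 5 of 10 small subunit members, with a median of 0.74. By origin, 11 of 21 members with a bacterial homolog were higher, with a median of 1.02, and 4 of 8 mitochondria-specific members, with a median of 0.80. Among all genes tested 45.3% were higher in BMDM, with a median of 0.81. After quantile normalization 5 large subunit members were higher in BMDM and 2 in BSM (median 0.37), compared with 2 and 0 of the small subunit (median -0.05). The same counts were 6 and 2 for members with a bacterial homolog and 1 and 0 for mitochondria-specific members. After that normalization 21.7% of all genes tested were higher in BMDM and 19.3% in BSM. Of the members tested, 10 of the 19 large subunit and 8 of the 10 small subunit members passed the minimum in BMDM only. By origin these were 13 of the 21 with a bacterial homolog and 5 of the 8 mitochondria-specific members. The minimum thus bore unequally on the classes, and whether they differ was not tested. Summed FPKM of the large subunit genes was 2.16 to 2.30 times that of the small subunit genes in the BMDM libraries, and 3.21, 1.95 and 1.87 times in BSM replicates 1, 2 and 3. BSM replicate 1 was above and the other BSM libraries were below all BMDM libraries in this ratio.

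**Figure D4:**
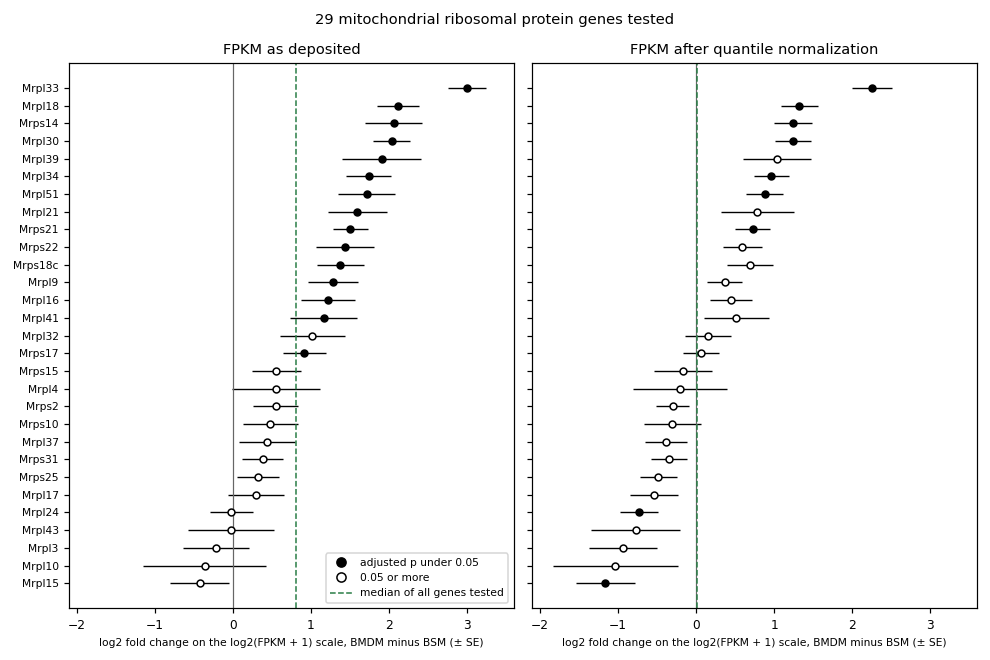
Log2 fold change of the 29 members tested (x axis, BMDM minus BSM, with standard error), on the FPKM as deposited (left) and after quantile normalization (right), with filled points at an adjusted p-value under 0.05 and a dashed line at the median of all genes tested. On the left 15 members are called, all to the right of 0, and on the right 7 are called to the right and Mrpl24 and Mrpl15 to the left.

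Mrpl33, a small protein of the large subunit with a bacterial homolog, had the largest difference of the family. It lies at chr5:31899308-32004345 of mm9, the build of the files. Its FPKM was 19.0, 18.9 and 17.2 in BMDM replicates 1, 2 and 3 and 1.61, 1.81 and 0.917 in BSM replicates 1, 2 and 3. The libraries of each cell type lay close together and far from the other group, with mean FPKM 12.7-fold higher in BMDM. The log2 fold change was 3.00 ± 0.24 (SE, adjusted p = 5.15e-05 by limma, n = 3 and 3), 2.26 ± 0.26 after quantile normalization (adjusted p = 0.000382) and 3.06 ± 0.21 without BSM replicate 1.

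Mrpl18, the homolog of the bacterial protein that binds 5S rRNA, lies at chr17:13104221-13108957. Its FPKM was 5.69, 10.5 and 7.82 in BMDM and 0.983, 0.993 and 1.13 in BSM, with the 3 BSM libraries almost equal and no overlap. This was a log2 fold change of 2.11 ± 0.27 (SE, adjusted p = 0.000522 by limma) and after quantile normalization 1.32 ± 0.24 (adjusted p = 0.00339).

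Mrpl30, another large subunit protein with a bacterial homolog, lies at chr1:37947398-37955180. Its FPKM was 7.82, 7.45 and 6.23 in BMDM and 0.800, 0.882 and 1.31 in BSM, which did not overlap. On the log2 scale the difference was 2.04 ± 0.24 (SE, adjusted p = 0.000328 by limma) and after quantile normalization 1.24 ± 0.23 (adjusted p = 0.00429).

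Mrpl34, a very short protein of the large subunit with a bacterial homolog, lies at chr8:73988858-73989644. Its FPKM was 7.16, 10.7 and 8.11 in BMDM and 1.38, 2.92 and 1.51 in BSM, again without overlap. On the log2 scale BMDM were higher by 1.74 ± 0.29 (SE, adjusted p = 0.00177 by limma) and after quantile normalization 0.96 ± 0.23 (adjusted p = 0.012).

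In the small subunit the largest differences called in both tables were those of Mrps14 and Mrps21, both with bacterial homologs. Mrps14, a protein of the head of the small subunit, lies at chr1:162125346-162132301. Its FPKM was 7.49, 14.2 and 9.06 in BMDM and 0.626, 2.42 and 2.22 in BSM, so that every BMDM library was above every BSM library. Its log2 fold change was 2.06 ± 0.37 (SE, adjusted p = 0.00261 by limma) and after quantile normalization 1.25 ± 0.24 (adjusted p = 0.0053).

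Mrps21 lies at chr3:95666557-95675442. Its FPKM was 6.195, 5.2 and 6.13 in BMDM and 1.26, 1.695 and 1.296 in BSM, with little spread in either cell type. Its difference was 1.503 ± 0.23 on the log2 scale (SE, adjusted p = 0.00118 by limma) and after quantile normalization 0.73 ± 0.22 (adjusted p = 0.0344). Matches to other genes, such as Gm6181, covered 54.1% of the longest transcript of Mrps21, so its reads could have been split.

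Of the mitochondria-specific members, Mrpl39 and Mrpl51 had the largest differences called in both tables. Mrpl39, which resembles threonyl-tRNA synthetases in sequence, lies at chr16:84717821-84735987 and had the highest mean FPKM of the family in BMDM. Its FPKM was 17.7, 19.5 and 21.5 in BMDM and 1.25, 7.09 and 7.99 in BSM. No libraries overlapped, but BSM replicate 1 was far below the other 2. The log2 fold change was 1.90 ± 0.51 (SE, adjusted p = 0.0148 by limma), 1.04 ± 0.44 after quantile normalization (adjusted p = 0.0951), and 1.26 ± 0.17 without BSM replicate 1 (adjusted p = 0.00101).

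Mrpl51 lies at chr6:125141819-125145601. Its FPKM was 3.51, 7.12 and 5.50 in BMDM and 0.230, 1.59 and 1.12 in BSM, without overlap. BMDM were higher by a log2 fold change of 1.71 ± 0.36 (SE, adjusted p = 0.00571 by limma) and after quantile normalization 0.88 ± 0.23 (adjusted p = 0.0202). The 7 other members called higher in BMDM were Mrpl21, Mrps22, Mrps18c, Mrpl9, Mrpl16, Mrpl41 and Mrps17, with log2 fold changes of 0.92 to 1.59. Of these 7, 0 passed after quantile normalization. Matches to other genes covered 59.9% of the longest transcript of Mrpl21, 47.9% of that of Mrpl41 and 36.5% of that of Mrps18c.

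At the other end stood 5 members with a log2 fold change below 0, Mrpl15, Mrpl10, Mrpl3, Mrpl43 and Mrpl24, all of the large subunit. Mrpl24, whose bacterial homolog starts the assembly of the large subunit, lies at chr3:87723428-87727594. Its FPKM was 4.37, 5.96 and 7.04 in BMDM and 7.75, 5.17 and 4.81 in BSM, which overlapped throughout. Its log2 fold change was -0.02 ± 0.27 (SE, adjusted p = 0.955 by limma), or 0.83 below the median of all genes, and -0.73 ± 0.24 after quantile normalization (adjusted p = 0.0454). Matches to other genes, mainly Rrnad1, covered 43.8% of its longest transcript.

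Mrpl15, a large subunit protein with a bacterial homolog, lies at chr1:4763287-4775820. Its FPKM was 2.86, 3.12 and 3.52 in BMDM and 8.98, 3.90 and 2.59 in BSM, with BSM replicate 1 far above the rest and the others overlapping. Its log2 fold change was -0.43 ± 0.38 (SE, adjusted p = 0.36 by limma), -1.16 ± 0.38 after quantile normalization (adjusted p = 0.0437) and, with quantile normalization and without BSM replicate 1, -0.70 ± 0.20 (adjusted p = 0.0309).

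The levels of Mrpl3, Mrpl10 and Mrpl43 in BSM rested on a single library. Mrpl3, a protein near the centre where peptide bonds form, had 2.56, 3.87 and 2.44 FPKM in BMDM and 7.94, 2.03 and 2.49 in BSM. Mrpl10, the protein that anchors the stalk of the large subunit, had 0.630, 1.78 and 1.33 FPKM in BMDM and 10.6, 0.413 and 0.376 in BSM. Mrpl43, a mitochondria-specific protein, had 2.00, 2.28 and 2.44 FPKM in BMDM and 7.60, 1.24 and 0.841 in BSM.

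In all 3 genes BSM replicate 1 was the highest library of all, and without it every BMDM library was above both BSM libraries for Mrpl10 and Mrpl43. The log2 fold changes with all libraries were -0.22 ± 0.43 (SE) for Mrpl3, -0.36 ± 0.79 for Mrpl10 and -0.02 ± 0.55 for Mrpl43, none of them past the threshold. Mrpl17, of the large subunit, had a difference of 0.30 ± 0.36 with values of 1.39, 4.54 and 1.86 FPKM in BMDM and 1.35, 1.88 and 1.99 in BSM, where BMDM replicate 2 stood alone. Leaving BSM replicate 1 out added Mrpl4 and Mrps15 to the members called higher in BMDM, at 1.23 and 0.78, and removed Mrpl41. Neither Mrpl4 nor Mrps15 reached the minimum in the other BSM libraries.

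The 5 members with the highest mean FPKM were Mrpl39, Mrpl33, Mrps14, Mrpl34 and Mrpl18 in BMDM and made up 32.2% of the family's FPKM. In BSM they were Mrpl24, Mrpl39, Mrpl15, Mrpl3 and Mrpl10 with 28.5%, and without BSM replicate 1 they were Mrpl39, Mrpl24, Mrpl37, Mrps10 and Mrpl15 with 28.0%. Mean FPKM of Mrpl39 (19.5 ± 1.92, SD, n = 3) and Mrpl33 (18.3 ± 1.00) in BMDM differed by less than the spread between libraries, and both were well above Mrps14 at 10.3 ± 3.53. In BSM Mrpl24 (5.91 ± 1.60), Mrpl39 (5.45 ± 3.66) and Mrpl15 (5.16 ± 3.38) were within their spread.

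To describe which of the tested members departed most from the others, the mean log2(FPKM + 1) of the 29 tested members was subtracted in each library before the fit. Of these 29, 18 passed the minimum in BMDM only, which raises the mean in BMDM and moves the other members towards BSM, and the result still depends on the scaling of the libraries. Relative to the family, 5 members were higher in BMDM, Mrpl33, Mrpl18, Mrps14, Mrpl30 and Mrpl34 (15.5% of all genes tested were), by 0.75 to 2.02 on the log2 scale. All 5 had themselves passed the minimum in BMDM only, and 5 of 29 is near the share of all genes. These calls therefore describe the 5 genes and are not a result about the family. Mrpl15, Mrpl24 and Mrps25 lay towards BSM (23.8% of all genes were called so), but with a minimum of 1 FPKM 0 members did, so these calls depend on the minimum. The differences were -1.42 ± 0.38 (SE, adjusted p = 0.0204 by limma) for Mrpl15 and -1.01 ± 0.26 (adjusted p = 0.0176) for Mrpl24. Mrps25, a mitochondria-specific small subunit protein, differed by -0.67 ± 0.22 (adjusted p = 0.0491), but 75.7% of its longest transcript matched other genes, mainly Nr2c2.

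The log2 fold changes of the 29 on the FPKM as deposited ran from -0.43 to 3.00, with quartiles of 0.38 and 1.59. Without BSM replicate 1, 5 members were higher in BMDM and 7 in BSM relative to the family. The count in BSM thus moved from 3 to 7 with that library left out. The share of all genes called in this fit was not computed, so these counts are not a result about the members.

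With a minimum of 1 FPKM, 21 of 54 members were higher in BMDM (37.2% of all genes tested) and 0 in BSM (7.66%), with 26 and 0 at an unadjusted p-value under 0.05 by limma. With no minimum, all 76 members could be tested. Of these 17 were higher in BMDM (14.9% of all 21167 genes above 0) and 0 in BSM (3.36%), and at an unadjusted p-value under 0.05 there were 33 and 0. Mean FPKM was higher in BMDM for 66 of 76 members, and for 69 without BSM replicate 1. The log2 fold change with no minimum was above 0 for 66 members and for 64.4% of all genes. Every BMDM library was above every BSM library for 40 members (30.0% of all genes above 0), the reverse held for 0 (7.32%), and the groups overlapped for 36. Without BSM replicate 1 these numbers were 47 (33.5%), 2 (16.8%), namely Mrpl23 and Mrps6, and 27.

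Among the 47 members below the minimum, the lowest levels were those of Mrpl44, a protein related to ribonuclease III, at 0.00208 to 0.0124 FPKM in BMDM and 0.000113 to 0.00222 in BSM. The same gene had ALEXA-Seq values of 13.4 to 42.2 in BMDM and 1.03 to 13.5 in BSM, and the cause of its very low FPKM was not tested. Mrps12 and Mrps16, like Mrpl44, were picked after their values were seen. Mrps12, the small subunit protein at the decoding centre, had 1.01, 1.45 and 0.745 FPKM in BMDM and 0, 0.0760 and 0.207 in BSM, without overlap. Mrps16, another small subunit protein with a bacterial homolog, had 0.436, 0.475 and 0.354 FPKM in BMDM and 0, 0.0608 and 0.0545 in BSM.

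ALEXA-Seq values are a second quantification of the same libraries, so they test the counting of reads and not new samples, and they are not compared between genes. As many genes were tested as in the FPKM table, taken by their highest value in any library, and 30 members were among them. Of these, 11 were higher in BMDM (37.1% of all genes tested) and 0 in BSM (10.9%), with 13 and 0 at an unadjusted p-value under 0.05. The median log2 fold change was 1.56, compared with 0.84 for all genes. Without BSM replicate 1, 23 of 34 members were higher in BMDM (50.6%) and 0 in BSM (13.6%), with 24 and 0 at an unadjusted p-value under 0.05.

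After quantile normalization of the ALEXA-Seq values 7 of 30 were higher in BMDM (22.6%) and 1 in BSM (21.2%), which was Mrpl48. With no minimum, 9 of 77 were higher in BMDM (10.5%) and 0 in BSM (3.83%), with 27 and 0 at an unadjusted p-value under 0.05 by limma.

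Every BMDM library was above every BSM library for 39 of 77 members by ALEXA-Seq (24.3% of all genes above 0), and the reverse held for 1 (8.63%). That was Mrpl48, a mitochondria-specific large subunit protein, with ALEXA-Seq values of 29.8, 26.2 and 31.6 in BMDM and 39.8, 34.0 and 34.8 in BSM. Its FPKM of 1.82, 2.08 and 2.90 in BMDM and 1.91, 2.15 and 1.55 in BSM overlapped. Mrpl42, listed only by ALEXA-Seq, had 343.0, 447.2 and 467.4 in BMDM and 114.3, 126.4 and 169.0 in BSM, a log2 fold change of 1.62 ± 0.24 (SE, adjusted p = 0.00179 by limma).

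Among the 23 members that both tables tested, 22 had the same sign, 10 were higher in BMDM in both, 4 in the FPKM table only and 0 in the ALEXA-Seq table only. Mrpl33 had ALEXA-Seq values of 63.1, 62.6 and 56.6 in BMDM and 4.18, 8.76 and 8.66 in BSM, a log2 fold change of 2.97 ± 0.40 (SE, adjusted p = 0.00126). Mrpl24 had 32.1, 60.9 and 55.4 in BMDM and 71.7, 43.1 and 37.7 in BSM, and its log2 fold change of -0.03 ± 0.39 was again near 0.

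**Figure D5:**
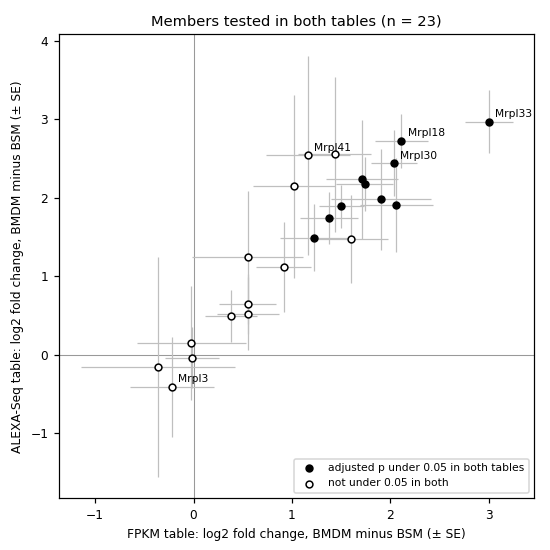
Log2 fold change (BMDM minus BSM, with standard errors) of the 23 members tested in both tables, from the FPKM table (x axis) and the ALEXA-Seq table (y axis), with filled points at an adjusted p-value under 0.05 in both. The 10 filled points lie at the upper right, Mrpl33 farthest, and 22 of 23 points have the same sign in both tables.

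The other parts of the mitochondrial translation system were described from lists of known genes. The 12S rRNA, mt-Rnr1, had 25520, 28390 and 28670 FPKM in BMDM and 3246, 3876 and 3347 in BSM, a log2 fold change of 2.98 ± 0.15 (SE, adjusted p = 7.18e-06 by limma). The 16S rRNA, mt-Rnr2, had 14570, 15640 and 14810 FPKM in BMDM and 1544, 2551 and 2622 in BSM, a log2 fold change of 2.78 ± 0.23 (adjusted p = 5.96e-05). Both were far higher in BMDM without overlap, and they were among the most abundant entries of every library, so quantile normalization brought them to 0.00 and 0.30.

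Summed, the rRNAs made up 22.7% to 25.1% of all FPKM in BMDM and 6.93% to 8.74% in BSM. Per FPKM of the 76 members there were 195.5 to 229.1 FPKM of rRNA in BMDM and 54.5 to 75.7 in BSM, a ratio of means of 3.16, so the rRNAs differed more than the protein genes did. The authors removed reads of ribosomal sequence, and how far this touched the mitochondrial rRNAs is not given in the sources used here. The ratio of 12S to 16S was 1.75 to 1.94 in BMDM and 1.28 to 2.10 in BSM and overlapped.

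Of the 13 proteins encoded in mitochondria 10 passed the minimum, of which 8 were higher in BMDM and 0 in BSM, with 10 and 0 at an unadjusted p-value under 0.05. Of the 10, 7 passed in both cell types and 3 in BMDM only. The median log2 fold change was 1.56, and 45.3% of all genes tested were higher in BMDM, with a median of 0.81. After quantile normalization 1 of the 10 was higher in BMDM (21.7% of all genes), with a median of 0.60, and with no minimum 4 of 13 were (14.9%). mt-Co1, a catalytic subunit of cytochrome c oxidase, had 8347, 5842 and 7887 FPKM in BMDM and 1220, 1572 and 1080 in BSM, a log2 fold change of 2.51 ± 0.22 (SE, adjusted p = 8.41e-05 by limma). mt-Co2, another subunit of that enzyme, had 30.1, 16.2 and 24.2 FPKM in BMDM and 0.0317, 0.0412 and 1.73 in BSM. Its ALEXA-Seq values were 9593 to 18860 in BMDM and 1819 to 3474 in BSM, and in both tables every BMDM library was above every BSM library.

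Of the 7 mitoribosomal proteins named otherwise 4 passed, and 3 were higher in BMDM (45.3% of all genes tested) and 0 in BSM (9.22%). The numbers were the same at an unadjusted p-value under 0.05. All 4 passed in BMDM only and had to be lower in BSM by the minimum itself, so the count describes only these genes. Aurkaip1, a small subunit protein, had 3.27, 4.66 and 3.51 FPKM in BMDM and 0.167, 1.07 and 0.740 in BSM, a log2 fold change of 1.57 ± 0.31 (SE, adjusted p = 0.00399 by limma). Mrp63, of the large subunit, had 4.57, 5.05 and 3.25 FPKM in BMDM and 1.22, 1.301 and 0.801 in BSM, a log2 fold change of 1.32 ± 0.26 (adjusted p = 0.0041). Neither overlapped between the cell types. After quantile normalization 1 of these 4 genes was higher in BMDM (21.7% of all genes), with a median of 0.38 in place of 1.12. Relative to the family 0 were (15.5% of all genes).

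Of 21 assembly factors 3 passed, and 0 were called in either direction, nor at an unadjusted p-value under 0.05. Without BSM replicate 1, C1qbp and Malsu1 were higher in BMDM, by 1.01 ± 0.24 (SE, adjusted p = 0.0108 by limma) and 0.76 ± 0.18 (adjusted p = 0.0109). Of 15 translation factors 8 passed, of which 3 were higher in BMDM (45.3% of all genes tested) and 1 in BSM (9.22%). After quantile normalization the counts were 1 (21.7% of all genes) and 1 (19.3%). Of the 8 translation factors, 3 passed in both cell types, 4 in BMDM only and 1 in BSM only. Slirp, which binds and stabilises mitochondrial messenger RNAs, had 6.26, 6.53 and 8.44 FPKM in BMDM and 0, 2.14 and 1.90 in BSM, a log2 fold change of 1.94 ± 0.44 (adjusted p = 0.00788).

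Gfm2, the factor that splits mitochondrial ribosomes into subunits for recycling, went the other way, having passed the minimum in BSM only. It had 0.735, 2.28 and 0.585 FPKM in BMDM and 8.24, 3.66 and 3.49 in BSM, and every BSM library was above every BMDM library. The log2 fold change was -1.47 ± 0.40 (SE, adjusted p = 0.0167 by limma), -2.18 ± 0.36 after quantile normalization (adjusted p = 0.00231) and -1.14 ± 0.35 without BSM replicate 1 (adjusted p = 0.0275). In the ALEXA-Seq table it was -4.33 ± 0.30 (adjusted p = 0.000101).

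Of 17 mitochondrial aminoacyl-tRNA synthetases 6 passed, of which 1 was higher in BMDM (45.3% of all genes tested) and 0 in BSM (9.22%). At an unadjusted p-value under 0.05 there were 2 and 0. Of the 6, 3 passed in both cell types, 1 in BMDM only, 1 in BSM only and 1 through BSM replicate 1 only. Lars2, which charges leucine, was the 1 called, with 182.1, 359.0 and 201.4 FPKM in BMDM and 46.2, 53.2 and 44.9 in BSM. Its ALEXA-Seq values were 8.24, 9.10 and 10.1 in BMDM and 1.42, 8.07 and 5.55 in BSM, and it was not among the genes tested there. The call of Lars2 therefore rests on the FPKM alone, and why the tables place it so differently was not tested. After quantile normalization 1 synthetase was higher in BMDM (21.7% of all genes) and 2 in BSM (19.3%). Iars2, which charges isoleucine, had a log2 fold change of 1.09 ± 0.43 (adjusted p = 0.0627).

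Of the 9 genes of mitochondrial transcription and DNA 4 passed, and 1 was higher in BMDM (45.3% of all genes tested) and 0 in BSM (9.22%). The numbers were the same at an unadjusted p-value under 0.05. Of the 4, 3 passed in both cell types and 1 in BMDM only. Tfb2m, a transcription initiation factor, had a log2 fold change of 0.97 ± 0.25 (SE, adjusted p = 0.013 by limma), close to the median of all genes. After quantile normalization 0 of these genes were higher in BMDM (21.7% of all genes) and 1 in BSM (19.3%). At an unadjusted p-value under 0.05 by limma there were 0 and 2. Tefm, the elongation factor, had -0.48 ± 0.41 (adjusted p = 0.346).

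Markers of the sorted cell types followed the labels, and markers of cycling cells differed between the same groups. All 8 microglial markers were higher in BSM, with summed FPKM of 992.5 to 1126 in BSM and 17.6 to 20.2 in BMDM, and all 7 markers of marrow monocytes were higher in BMDM, with 765.5 to 960.2 FPKM and 1.36 to 1.63 in BSM. Of 10 markers of cycling cells 9 were tested and all 9 were higher in BMDM, with summed FPKM of 287.1 to 385.1 in BMDM and at most 19.0 in BSM. Ccnb1 was at 0 in all BSM libraries. The part of cycling cells in the family's difference was not tested.

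Markers of marrow progenitors (4 of 5 tested higher in BMDM, 1 in BSM) and of granulocytes (3 of 5 higher in BMDM) were highest in BMDM replicate 2. Their summed FPKM in BMDM replicates 1, 2 and 3 was 47.1, 263.3 and 89.3 for progenitors and 18.1, 275.6 and 23.4 for granulocytes, compared with at most 11.3 and 0.0849 in BSM. Elane was at 0 in every BSM library, and Ly6g, which the sort selected against, was above 0 only in BMDM replicate 2. This library also had the highest summed FPKM of the family, at 225.2, and of all genes, at 194200. The members' share of nuclear FPKM there, 0.162%, was the lowest of the BMDM libraries. The part of these cells in the family's values was not tested. Of the markers of erythroid cells 3 of 3 tested were higher in BMDM, with sums of 7.44 to 49.2 in BMDM and at most 0.163 in BSM, and no marker of neurons or endothelial cells passed the minimum. The 1 lymphocyte marker tested was not called.

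In BSM, markers of other brain cells summed to far less FPKM than those of microglia. Astrocyte markers summed to 9.52, 5.31 and 6.89 FPKM in BSM replicates 1, 2 and 3 and to at most 0.0972 in BMDM. Oligodendrocyte markers summed to 7.06, 12.8 and 8.94 FPKM in BMDM and to 1.91, 2.12 and 1.78 in BSM. Of 5 astrocyte markers Slc1a3 was tested and was higher in BSM, whereas Gfap was at 0 in all 6 libraries. Of 6 oligodendrocyte markers Mbp and Cnp were tested and were higher in BMDM, and Mog and Mobp were at or near 0 in every library. The part of these cells in the family's values was not tested.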

How the data were processed

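The 6 libraries were grouped by their labels into BMDM and BSM, with 3 libraries each. The authors sequenced amplified cDNA, and the submitters' processing notes name CASAVA 1.7.0, TopHat 1.3.1, Bowtie 0.12.7, Cufflinks 1.0.3 and the build mm9. FPKM per gene were deposited by the authors, without counts, so the depth behind each value is unknown and no counting interval is given. The second deposited table holds a normalized ALEXA-Seq signal per gene, which the authors made from the same libraries, and its exact unit is not given in the sources used here. Whether strand was used in counting is not given either, so values of overlapping genes are uncertain.

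Members and gene lists were chosen with earlier results of these data known. Values were tested as log2(value + 1) with limma 3.58.1 in R 4.3.3, with a mean-variance trend, for genes at 3 FPKM or more in at least 1 library, with Benjamini-Hochberg adjustment over every gene in the fit. Libraries came from pooled mice, so p-values measure the spread between these libraries. With 3 against 3, an exact permutation test of 1 gene cannot go below 0.1, two-sided. The fit was tested on simulated data. Copies were sought with blastn 2.17.0 (at least 100 bases at 95% identity). Members were named by a rule: the 8 with the largest difference called in both tables, the 4 with the smallest, the 5 with the highest mean in each cell type, and those called higher in BSM or relative to the family mean. For each other list the 2 with the largest difference were named. Alternatives were scaling, minimum, pseudocount, library weights, a replicate block and leaving out each library.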

Additional observations from a re-analysis of the deposited data

How the results depend on the processing

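Of the FPKM results, the count of members higher in BMDM (15) depended most on scaling: it was 7 with quantile normalization, 7 with upper quartile scaling, 3 with equal sums of FPKM, 6 with equal sums without mitochondrially encoded genes, and 9 with quantile normalization without BSM replicate 1, an alternative chosen after seeing the data. The count higher in BSM (0) was 2, 0, 2, 1 and 2 in the same order. With quantile normalization 21.7% of all genes were higher in BMDM and 19.3% in BSM, and without BSM replicate 1 as well 25.4% and 23.2%. For the other scalings, library weights, the pseudocount, the replicate block and leaving out any other library, such shares were not computed. Counts from those fits are not a result about the members. Leaving out 1 library gave 10 to 16 members higher in BMDM, with 10 without BMDM replicate 2, where Mrpl16, Mrpl39, Mrpl41, Mrpl9 and Mrps17 were lost, and 10 without BMDM replicate 3, where Mrpl16, Mrpl39, Mrpl41, Mrps17 and Mrps22 were lost. The median log2 fold change (1.02) was 1.57 with a pseudocount of 0.1, 0.56 with a minimum of 1 FPKM, 0.48 with no minimum, 0.15 with quantile normalization, 0.52 with upper quartile scaling, 0.23 with equal sums, 0.46 with equal sums without mitochondrially encoded genes, 0.83 with library quality weights, 0.19 with quantile normalization without BSM replicate 1, and 0.96 to 1.22 when 1 library was left out.

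Labels share replicate numbers between the groups, and same-numbered libraries are from mice of the same sex. Deviations of same-numbered libraries correlated at only -0.0195, -0.00836 and 0.134, so the numbers were not taken to pair the libraries. With a replicate block 16 members were higher in BMDM, and with a replicate block and quantile normalization 6 were higher in BMDM and 1 in BSM, with a median of 0.15. By ALEXA-Seq the count higher in BMDM (11) was 7 with quantile normalization and 7 to 23 when 1 library was left out, with 7 without BMDM replicate 2 or BMDM replicate 3 and 23 without BSM replicate 1. The count higher in BSM (0) was 1 with quantile normalization and 2 with quantile normalization without BSM replicate 1. The share of all genes called in that last ALEXA-Seq fit was not computed.

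Relative to the family mean, the count higher in BMDM (5) was 3 with a pseudocount of 0.1, with upper quartile scaling and with either kind of equal sums, 12 with no minimum, 10 with library quality weights, and 2 to 5 when 1 library was left out. The count higher in BSM (3) was 0 with a minimum of 1 FPKM, 11 with no minimum, 11 with library quality weights, 6 with quantile normalization without BSM replicate 1, and 0 to 7 when 1 library was left out. The log2 fold change of Mrpl43 turned from -0.02 to 0.63 with library quality weights, whose estimation stopped before it converged. Of the other single-gene values 232 kept their direction and their side of the threshold, 14 lost a call and 8 gained one. A further 21, of Mrpl10, Mrpl17, Mrpl24, Mrpl3, Mrpl43 and Mrps25, changed sign without being called in either fit. The cause of these changes was not tested. Shares of all genes called relative to the family were not computed for these alternatives. No depth is known, so values near 0 FPKM cannot be told from absence.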
